A study of Bos taurus with 8 samples.

Results

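Fibro-adipogenic progenitors (FAPs) of cattle were compared at passage 2 between cultures started from FAPs purified by fluorescence-activated cell sorting and cultures of unsorted muscle cells that grew together with satellite cells (SCs). The members are the passage 2 cells that the authors had annotated as FAPs, which came from sorted FAP cultures in donors 4, 7 and 8 and from unsorted cultures in donors 1, 2 and 9. There were 4949 of them among 8966 cells at passage 2 and 36129 cells in the series, 2532 from sorted and 2417 from unsorted cultures. The series holds 5 droplet libraries, from dissociated muscle and from cells at passages 0, 2, 5 and 8, and each library pooled the cells of all its donors. Cells were taken from the semitendinosus muscle of Belgian Blue cattle, donors 2, 4 and 7 being female calves, donors 1 and 9 adult females and donor 8 an adult male. After 72 h the FAP cultures were sorted on surface antigens (ITGA5 and ITGA7 among them), and both kinds of culture were then grown in the same serum-free growth medium. Sorted FAPs were plated on collagen and unsorted cells on fibronectin, so sort, coating and the company of SCs cannot be told apart, and the 2 groups are different animals.

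FAPs are mesenchymal cells of the muscle interstitium. They secrete much of its extracellular matrix, can form fibroblasts or adipocytes, and signal to SCs, the stem cells of the muscle fibre, through growth factors, cytokines and matrix. PDGFRA, the receptor for platelet-derived growth factor, is their usual marker.

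Raw counts of unique molecular identifiers (UMIs, one per captured RNA molecule) were summed over the FAPs of each donor, and these 6 sums, not the cells, were the replicates. The passage 2 sums held 17945330 to 30747403 UMIs from 704 to 980 cells. Levels are CPM, the UMIs of a gene relative to all UMIs of a donor's sum after TMM scaling, and every list of 6 values gives donors 1, 2 and 9 (unsorted) and then donors 4, 7 and 8 (sorted). Differences are the log2 fold change of sorted over unsorted (log2FC) with its standard error (SE), and to be called a gene needed an adjusted p under 0.05 in edgeR and a log2FC beyond 1 in either direction. Of the 12210 barcodes of the passage 2 library the authors' genotype assignment placed 2393 (19.6%) as doublets of different donors, which were left out, while a FAP and an SC of the same donor in one droplet cannot be found that way. Any 2 of the libraries shared between 4 and 29 cell barcodes.

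The sorted FAP cultures still held cells annotated as SCs at passage 2. Cells annotated as SCs made up 24.1, 11.1 and 19.0% of the unsorted cultures and 10.4, 5.46 and 2.09% of the sorted ones, so that the lowest unsorted donor stood only just above the highest sorted donor. The mean was 18.0% ± 6.55 (SD, n = 3) against 5.97% ± 4.16, with a 2-sided exact permutation p of 0.10, the smallest that 3 against 3 donors can give, and 0.30 after Benjamini-Hochberg adjustment over the 6 cell measures. By passage 5 the separation was wider, with 44.2, 5.11 and 15.7% in unsorted and 0.738, 0.425 and 0.347% in sorted cultures.

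FAPs of the sorted cultures yielded fewer UMIs per cell. The median was 36807.5, 31537.5 and 34058 UMIs in the unsorted donors and 31290, 25737 and 20119 in the sorted donors, with no overlap (exact permutation p = 0.10, adjusted 0.30). Median genes per FAP were 5152, 4727 and 4994 against 4993, 4451 and 4040, which overlapped (exact permutation p = 0.20, adjusted 0.40). CPM removes the depth of a sum, not other traits of shallower cells.

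The share of FAPs called outside G1, the cell cycle phase before DNA synthesis, differed more within the sorted group than between groups. It was 31.8, 16.1 and 24.4% in unsorted donors and 50.7, 24.3 and 7.81% in sorted donors (exact permutation p = 0.90, adjusted 0.90). Donor 4 had the highest and donor 8 the lowest share of all 6. The median percent of mitochondrial UMIs lay between 2.74 and 3.06 in every donor (exact permutation p = 0.70, adjusted 0.84). The share of FAPs with at least 1 UMI of any of 7 SC genes was 35.5, 31.9 and 29.7% against 32.7, 30.3 and 23.2% (exact permutation p = 0.50, adjusted 0.75). With each cell thinned to 10000 UMIs the shares became 13.2, 13.0 and 10.9% against 12.5, 12.5 and 11.6%, while 69.3 to 92.4% of the SCs of these donors held such a UMI at the same depth.

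**Figure D1:**
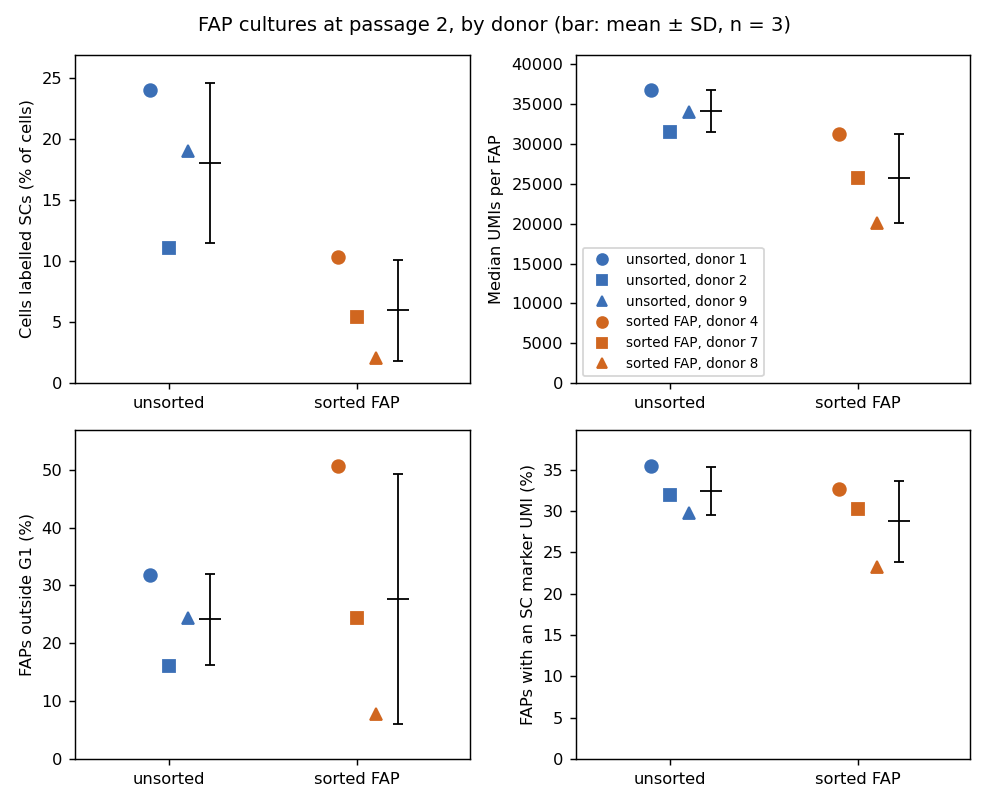
Measures per donor at passage 2: the percent of cells annotated as SCs, the median UMIs per FAP, the percent of FAPs outside G1 and the percent of FAPs with an SC marker UMI. Points are donors and bars mean ± SD over 3 donors. SC share and UMIs per FAP separate the groups only narrowly, whereas donors 4 (50.7%) and 8 (7.81%) span the whole range of FAPs outside G1.

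Cell types had been assigned from the same expression values, so marker levels describe these cells and are no test of the label. Of 14 FAP marker genes 12 passed the filter on low counts, none was called at passage 2, and for none did the donors of one group lie wholly above those of the other, where 0.017% of all tested genes were called and 17.1% did not overlap. The median log2FC of these 12 genes was -0.07, against 0.02 over all tested genes. PDGFRA stood at 200, 371 and 294 CPM in unsorted and 259, 487 and 731 CPM in sorted donors. ITGA5, the integrin subunit used in the sort, stood at 230, 167 and 182 against 189, 163 and 118 CPM.

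Among the other FAP markers the sorted donors differed from one another. SCARA5, a scavenger receptor of fibroblasts, measured 56.7, 49.5 and 41.2 against 21.4, 136 and 303 CPM. MFAP5, a microfibril protein, measured 149, 177 and 105 against 93.9, 374 and 591 CPM. In both genes donor 4 was the lowest of the 6 and donors 7 and 8 the highest, so the log2FC of 1.64 (SE 0.80, edgeR adjusted p = 0.57) and 1.30 (SE 0.60, edgeR adjusted p = 0.55) rested on a group that spread over both sides of the unsorted donors.

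The same order within the sorted group appeared in DCN, the collagen-binding proteoglycan decorin, at 8501, 9562 and 9677 against 6006, 9655 and 13399 CPM. THY1, a surface glycoprotein of mesenchymal cells, stood at 86.9, 356 and 189 against 190, 401 and 598 CPM, LUM (lumican) at 3285, 3737 and 3431 against 2294, 2993 and 3735 CPM, and DPT (dermatopontin) at 68.1, 230 and 73.7 against 103, 169 and 175 CPM. PDGFRB lay at 18.5, 19.9 and 17.7 against 13.3, 14.8 and 20.2 CPM. Donor 4 had the lowest value of the sorted donors for each of these 5 genes, and also the largest share of cells outside G1; whether these go together was not tested. CD34 (at most 0.776 CPM) and PI16 (at most 0.938 CPM), markers of resting FAPs in tissue, were too low to test.

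**Figure D2:**
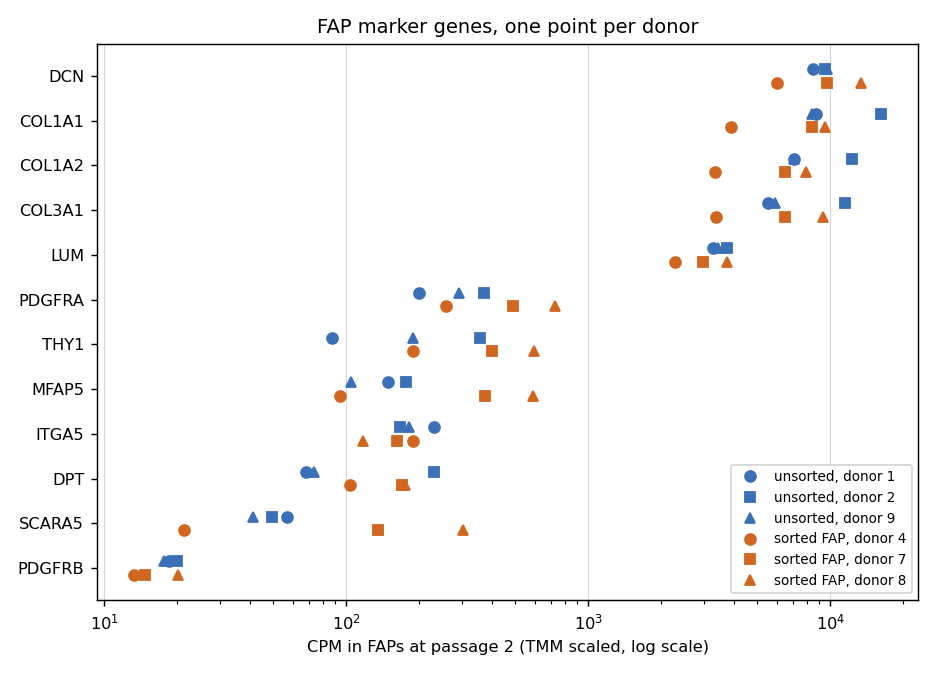
CPM of the 12 tested FAP marker genes in FAPs at passage 2 on a log scale, 1 point per donor, unsorted in blue and sorted in orange. The groups overlap for every gene, and the spread is wider among sorted donors for SCARA5 (21.4 to 303 CPM) and MFAP5 (93.9 to 591 CPM).

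Transcripts of SC genes were low in FAPs of both groups. All donors, with the SC-sorted cultures of donors 5, 6 and 10 (98.3 to 99.4% SCs), shared 1 droplet library, so free SC RNA could reach FAPs of every donor, and its part in these levels was not tested. The 11 SC markers summed to 13.5 to 16.9 CPM in unsorted and 15.2 to 17.3 CPM in sorted donors. MYF5, a myogenic transcription factor, stood at 2.63, 3.17 and 2.42 against 3.42, 2.63 and 2.98 CPM, and ITGA7, the other integrin of the sort, at 6.08, 5.91 and 4.84 against 5.54, 6.56 and 5.68 CPM. In SCs of the same cultures MYF5 had 93.9 to 166 CPM and ITGA7 70.7 to 153 CPM.

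MYOD1, a further myogenic factor, lay between 1.29 and 2.59 CPM in FAPs of all 6 donors, DES (desmin) between 3.11 and 4.80 CPM, NCAM1 between 0.619 and 1.36 CPM and CHODL between 0.0706 and 1.18 CPM. PAX7 was at most 0.0696 CPM, CDH15 at most 0.310 CPM and MSTN at most 0.0348 CPM, and CALCR and CHRDL2 had 0 UMIs in every donor. None of the 6 tested markers was called or had groups that did not overlap. Across all tested genes 0.017% were called and 17.1% did not overlap. The 15 committed myogenic markers in the table summed to 42.1 to 54.8 CPM over all donors, MYOG (myogenin) lying between 2.58 and 3.28 CPM and MYH8 at 0 UMIs. Cells annotated as SCs had, without TMM scaling, MYOD1 at 25.1 to 76.0 CPM in unsorted and 5.88 to 28.3 CPM in sorted cultures. Their MYOG stood at 105 to 153 and 10.8 to 123 CPM, DES at 58.3 to 261 and 55.1 to 285 CPM, and the FAP marker DCN at 1670 to 4468 and 3051 to 4493 CPM.

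At passage 2, 2 of 11786 tested genes (0.017%) were called, both lower in sorted FAP cultures and none higher, while 1159 genes had an unadjusted p below 0.05 and DESeq2 called 79, of which 47 were higher and 32 lower. Without sorted donor 4 the test called 10 genes, 5 of them higher, and without donor 7 it called 0 (841 with an unadjusted p below 0.05). The gene PRSS2, which encodes a trypsinogen, the inactive form of a digestive protease, stood at 37.2, 44.6 and 44.4 CPM in FAPs of unsorted cultures (960, 1282 and 1101 UMIs). In sorted cultures it stood at 0.318, 0.388 and 0.883 CPM (9, 9 and 16 UMIs). Every unsorted donor lay far above every sorted donor, with a log2FC of -6.38 (SE 0.31, edgeR adjusted p = 0.003). Trypsinogens form a family of near-identical copies, so reads may be shared with genes that were not named.

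The second gene, ENSBTAG00000011758, has no symbol in the files or the gene table. It measured 2.67, 2.47 and 2.54 CPM in unsorted against 0.212, 0.173 and 0.276 CPM in sorted donors (log2FC -3.53, SE 0.26, edgeR adjusted p = 0.022). The donor values again formed 2 tight groups. The counts behind the low values were 4 to 6 UMIs per donor. PRSS2 lost its call without sorted donor 7 (adjusted p = 0.066), and the other gene lost it without any 1 of donors 1, 2, 9, 7 or 8 (adjusted p from 0.061 to 0.29), with the direction kept in each case. Its call was also lost after thinning, with age class as a covariate, in FAPs without SC gene UMIs and in FAPs in G1.

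Both genes already differed between the same animals before the sort, and the difference in PRSS2 was wider at passage 2 (change -3.18, SE 0.42, edgeR adjusted p = 0.037, donor as a block). The call of this change held in 6 alternatives and was lost in 5, and donors 4, 7 and 8 stood below 1 CPM at both passages. In FAPs at passage 0, when none of the cultures had been sorted, these were the 2 genes called among 11131 (0.018%), with 26 by DESeq2, while the groups did not overlap for 7.91% of tested genes in the higher and 7.37% in the lower direction. PRSS2 measured 9.20, 6.87 and 8.65 CPM in donors 1, 2 and 9 and 0.95, 0.966 and 0.811 CPM in donors 4, 7 and 8 (log2FC -3.17, SE 0.21, edgeR adjusted p = 0.000755). ENSBTAG00000011758 measured 3.39, 3.68 and 3.72 against 0.475, 0.664 and 0.312 CPM (log2FC -2.86, SE 0.29, edgeR adjusted p = 0.0125). Its passage 0 call held in 7 alternatives and was lost in 3. In FAPs taken straight from muscle PRSS2 had 16, 27 and 28 UMIs in donors 1, 2 and 9, among 314002, 530348 and 330403 UMIs. These shares were larger than those of the same donors at passage 0 and at passage 2, so passage 0 was not their highest level before the sort. Donors 4, 7 and 8 had 0 UMIs, where the depth allows up to 5.35, 4.25 and 4.52 CPM (3 counts, counting error only). No change from muscle was tested.

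Donors outside both groups had either level. At passage 0, before their own cultures were sorted for SCs, FAPs of donors 6 and 10 had 12.9 and 20.7 CPM of PRSS2 and FAPs of donor 5 had 0.813 CPM, without TMM scaling. SCs of the same animals at passage 2 showed the same split, with 17.2 and 16.6 CPM in donors 6 and 10 and 0.535 CPM in donor 5. For ENSBTAG00000011758 the FAPs of donor 10 had 3.38 CPM at passage 0 and those of donors 5 and 6 had 0.755 and 0.467 CPM. Both levels occurred among these donors, whose cultures were not sorted for FAPs. The cause of these levels was not tested.

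**Figure D3:**
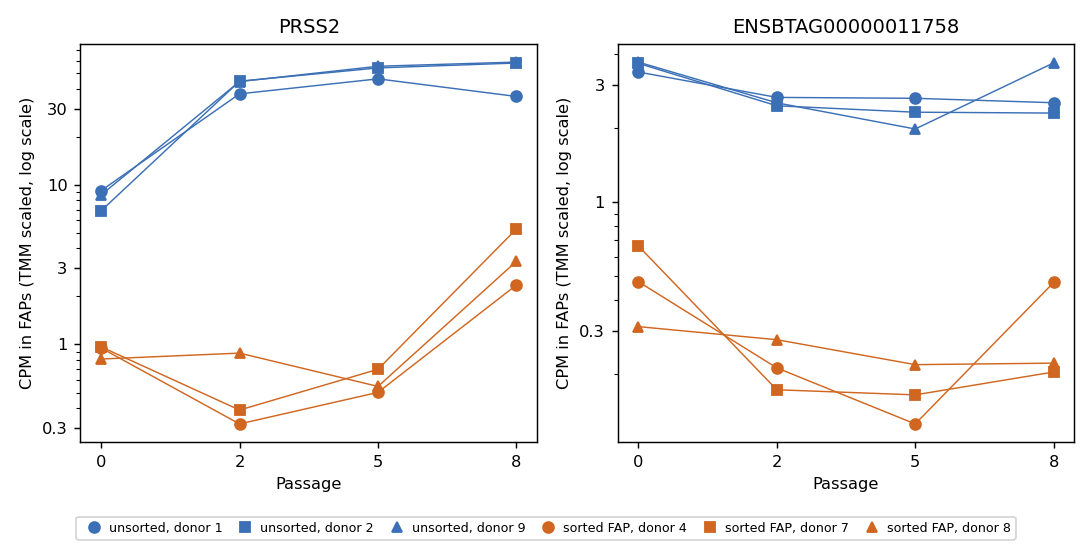
CPM of PRSS2 and ENSBTAG00000011758 in FAPs of each donor at passages 0, 2, 5 and 8 on a log scale, lines joining a donor. Donors 1, 2 and 9 lie above donors 4, 7 and 8 at every passage, including passage 0 before the sort (PRSS2 at least 6.87 against at most 0.966 CPM).

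None of the 42 gene lists had a called member at passage 2, where only 2 of the 11786 tested genes (0.017%) were called. The groups did not overlap for 2014 of the tested genes (17.1%). The values that follow for matrix, lipid, interferon and signalling genes are therefore descriptions of genes that did not pass the main test, chosen after their values were seen. Some of them, MFAP4, LAMA2, LPL, CCL11 and INHBB included, did pass in at least 1 alternative run.

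Interstitial collagens had a median log2FC of -0.31 over 16 tested genes, with 2 wholly below and none above, where 9.13% of all tested genes lay wholly below. COL1A1 stood at 8759, 16232 and 8438 against 3894, 8405 and 9480 CPM, and COL5A1 at 783, 1158 and 768 against 498, 595 and 625 CPM (log2FC -0.66, SE 0.19, edgeR adjusted p = 0.37). COL6A6 was the other collagen whose groups did not overlap, at 0.697, 1.74 and 1.25 against 0.106, 0.345 and 0.331 CPM. The enzymes LOXL2, which cross-links collagen and elastin, and ADAMTS1, a protease of the matrix proteoglycans, lay wholly below as well. LOXL2 measured 108, 79.5 and 99.1 against 60.0, 55.0 and 36.6 CPM and ADAMTS1 84.0, 78.8 and 57.7 against 28.4, 40.8 and 42.4 CPM.

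Elastic fibre genes had a median log2FC of 0.33 over 17 tested genes, with 4 wholly above and 1 (LOXL2) wholly below, where 7.96% of all tested genes lay wholly above. MFAP4, a microfibril-associated glycoprotein, measured 5.50, 10.1 and 4.31 against 22.8, 18.7 and 29.8 CPM (log2FC 1.84, SE 0.34, edgeR adjusted p = 0.28). The latent TGF-beta binding proteins LTBP2 and LTBP3 measured 102, 92.8 and 105 against 134, 172 and 210 CPM and 10.1, 11.5 and 12.5 against 25.1, 18.5 and 33.6 CPM. BGN, the proteoglycan biglycan, stood at 205, 365 and 211 against 528, 464 and 589 CPM, and LAMA2, the laminin chain of the muscle basement membrane, at 5.88, 12 and 7.05 against 16.1, 24.1 and 36.9 CPM. All 5 had every sorted donor above every unsorted one. BGN and LAMA2 were picked by their values, whereas the groups of the proteoglycans DCN and LUM overlapped.

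Receptors for the coatings were compared because the coatings differed between the groups. None of 5 tested collagen receptors and 1 of 7 receptors for fibronectin and related ligands had groups that did not overlap, where 17.1% of all tested genes did not. That 1 was ITGB8, at 5.11, 3.10 and 3.63 against 1.02, 1.38 and 2.26 CPM (log2FC -1.36, SE 0.34, edgeR adjusted p = 0.34). The median log2FC was -0.02 over the collagen receptors and -0.14 over the fibronectin group.

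Interferon-stimulated genes, which cells switch on during antiviral signalling, had a median log2FC of 0.57 over 29 tested genes, with 6 wholly above and none below, where 7.96% of all tested genes lay wholly above. MX1, a GTPase that restricts viruses, measured 46.6, 35.7 and 72.2 against 85.8, 122 and 139 CPM (log2FC 1.17, SE 0.29, edgeR adjusted p = 0.34). DDX58, the sensor RIG-I, measured 4.49, 4.04 and 6.53 against 7.87, 9.53 and 12.2 CPM. The summed level of the list was 743 to 1836 CPM in unsorted and 1805 to 2758 CPM in sorted donors, so the ranges met.

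Genes of cholesterol and fatty acid synthesis had 9 of 29 tested members wholly below and none above, where 9.13% of all tested genes lay wholly below, and a median log2FC of -0.07. SCD, which makes monounsaturated fatty acids, was among the most regular of these at 461, 397 and 435 against 262, 279 and 243 CPM (log2FC -0.72, SE 0.10, edgeR adjusted p = 0.17). Among 20 tested adipogenic and lipid handling genes 5 lay wholly below and 1 wholly above, with a median of -0.01. FABP3, a fatty acid carrier of that list, measured 1005, 676 and 877 against 518, 493 and 272 CPM. LPL, the lipase of that list that releases fatty acids from lipoproteins, measured 0.503, 1.04 and 0.484 against 1.52, 4.14 and 4.03 CPM.

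Among secreted signals, FST (follistatin), an inhibitor of activin and myostatin, stood at 169, 154 and 182 against 103, 95.1 and 49.6 CPM (log2FC -1.03, SE 0.26, edgeR adjusted p = 0.34). INHBB, a subunit of activin, stood at 2.79, 2.26 and 2.90 against 0.953, 0.604 and 0.938 CPM (log2FC -1.67, SE 0.26, edgeR adjusted p = 0.21). The eotaxin CCL11 measured 7.24, 9.53 and 14.1 against 2.65, 2.42 and 1.10 CPM, and CSF1, the growth factor of macrophages, 434, 348 and 433 against 615, 683 and 440 CPM. FST, INHBB and CCL11 had all sorted donors below, CSF1 all above. They were picked after their values were seen, where 9.13% of all tested genes lay wholly below and 7.96% wholly above. Genes of DNA replication (31 tested) and of mitosis (37 tested) had none apart in either direction, where 17.1% of all tested genes were apart. Their medians were 0.16 and 0.27.

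Contractile cell markers were compared because smooth muscle and mesenchymal cells are a further class of the muscle. Of 10 tested markers of smooth muscle and mesenchymal cells, 2 lay wholly below in sorted donors and 1 wholly above, where 9.13% of all tested genes lay below and 7.96% above. The list of 13 summed to 945 to 1370 CPM in unsorted and 671 to 824 CPM in sorted donors. ACTG2, a smooth muscle actin, stood at 145, 227 and 171 against 79.3, 113 and 92.8 CPM, whereas MYH11, the smooth muscle myosin, stood at 0.116, 0.244 and 0.161 against 0.741, 0.474 and 2.26 CPM. RGS5, a pericyte marker, had 0 UMIs in all donors and MCAM 1 UMI in all. No cell of this class was annotated at passage 2, and the part of these genes in the other differences was not tested.

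Because the same animals were measured before the sort, the sorted minus unsorted difference at passage 2 was tested against the same difference at passage 0 with the donor as a block. This change was called for 18 of 12188 genes (0.148%), 11 towards higher (0.0903%) and 7 towards lower levels (0.0574%) in sorted cultures, and DESeq2 called 87. The count rose to 74 without sorted donor 4 and was 0 without donor 1, 9 or 7, 3 without donor 2 and 19 without donor 8. Each of the 18 genes lost its call in several alternatives. LTBP3, GAS7, MYH10 and PLK2 lost it in 4, CEACAM1, FGF2 and LMO7 in 5, GPC1 in 6 and F2R in 8.

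LTBP3 had a change of 1.59 (SE 0.13, edgeR adjusted p = 0.010). Its passage 0 values were 11.3, 13.1 and 13.9 against 8.74, 7.49 and 12.2 CPM, so a gene that was on average lower in donors 4, 7 and 8 became wholly higher at passage 2. FGF2, the basic fibroblast growth factor, went from 53.4, 26.9 and 39.5 against 19.4, 15.4 and 17.6 CPM to 5.54, 3.37 and 6.01 against 7.10, 7.2 and 9.27 CPM (change 1.83, SE 0.19, edgeR adjusted p = 0.015). It was lower at passage 2 than at passage 0 in every donor, and the order of the groups turned.

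GAS7, a cytoskeletal adaptor, changed by 1.81 (SE 0.17, edgeR adjusted p = 0.012), CEACAM1, an adhesion molecule, by 2.76 (SE 0.33, edgeR adjusted p = 0.029) and F2R, the thrombin receptor, by 1.73 (SE 0.25, edgeR adjusted p = 0.048). F2R was alike in both groups at passage 0 (13.3, 16.2 and 18.4 against 15.1, 17.2 and 14.6 CPM), and at passage 2 it stood at 2.71, 4.66 and 2.78 against 10.0, 9.88 and 13.0 CPM. In the lower direction MYH10, a non-muscle myosin heavy chain, changed by -1.12 (SE 0.11, edgeR adjusted p = 0.012). It went from 53.3, 53.2 and 55.9 against 71.2, 61.7 and 56.1 CPM to 260, 293 and 259 against 156, 140 and 137 CPM. The proteoglycan GPC1, a coreceptor for fibroblast growth factors, changed by -1.05 (SE 0.11, edgeR adjusted p = 0.019), from 56.6, 66.1 and 62.1 against 72.2, 65.2 and 74.9 CPM to 212, 251 and 228 against 146, 116 and 124 CPM. LMO7 (change -2.09) and PLK2 (-1.28) had been wholly higher in donors 4, 7 and 8 at passage 0 and overlapped at passage 2.

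The same cultures were compared again at passage 5, where the groups stood further apart. The test called 121 of 11687 genes (1.04%), of which 42 were higher (0.359%) and 79 lower (0.676%) in sorted cultures, and 33.3% of tested genes had groups that did not overlap. DESeq2 called 356. The count depended on single donors, since it was 1 without donor 8, 5 without donor 7, 9 without donor 9, 26 without donor 1, 49 without donor 4 and 170 without donor 2. It was 7 with age class (calf or adult) as a covariate, 115 in FAPs with no UMI of 7 SC genes and 193 in FAPs in G1. Of the passage 5 calls named below, that of PRSS2 alone held under every alternative run (13 for most genes). COL6A3, GREM1 and RPRM lost theirs in 3 and BMP4 in 4, CCND1 and IGFBP3 in 9, ADAMTS1 and NRG1 in 8, and the others in 5 to 7, with adjusted p up to 0.16 (OAS1X).

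**Figure D4:**
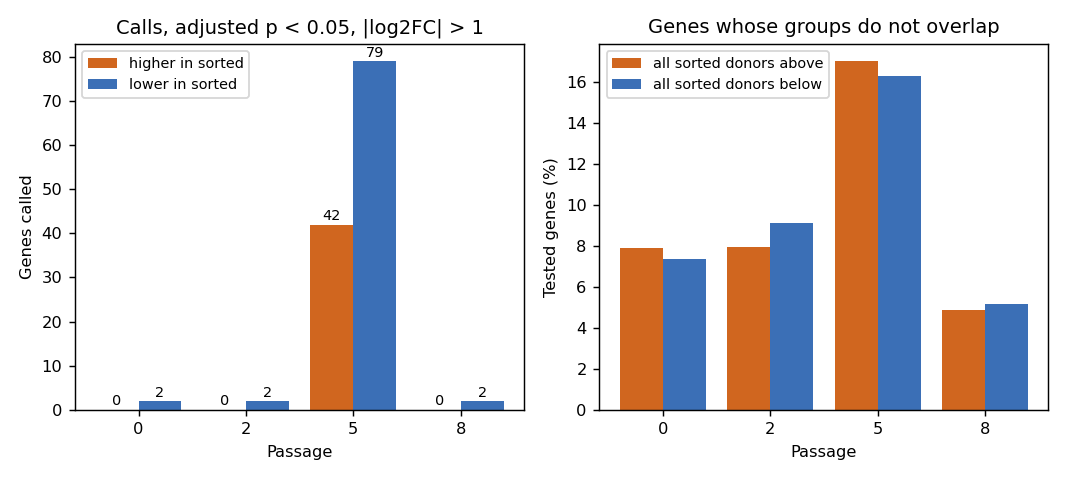
Left, genes called by edgeR in FAPs of sorted against unsorted cultures at passages 0, 2, 5 and 8, higher (orange) and lower (blue) in sorted cultures; right, the percent of tested genes whose 3 sorted donors lie wholly above or below the 3 unsorted donors. Calls number 2, 2, 121 and 2, and the shares are highest at passage 5 (17.0% above, 16.3% below).

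Because the same 6 donors were measured at both passages, the change of the group difference from passage 2 to passage 5 could be tested with the donor as a block, a test added after the passage 5 values had been seen. It was called for 380 of 12357 genes (3.08%), 133 higher and 247 lower, and for 199 to 424 genes when any 1 donor was left out. DESeq2 called 381. Among the genes named below, COL6A3, CCN4, ADAMTS4, LTBP2, LTBP3, FGFR1, GREM1, ID1, ID4, DUSP1, CYP27B1 and RPRM kept this call under all 11 alternatives. Others lost it in several, IGFBP5 and HOXB7 in 7 and 8 of them and IFIT2 in 6. COL1A1, COL1A2, ADAMTS5, IFIT1, CDKN2B and STC1 lost it in 5 each. FBN2, COL6A6, MX2, INHBB, ID3 and TNFAIP6 lost it in 4 each, with adjusted p up to 0.72 (FBN2).

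Several interstitial collagens changed towards higher levels in the sorted cultures. Of 16 tested interstitial collagens 7 changed in the higher direction and none in the lower one, where 1.08% of all tested genes changed in the higher direction, and the median change was 0.92, against -0.02 over all genes. COL6A3, a chain of the microfibrillar collagen VI, went from 36.2, 30.3 and 41.2 against 36.6, 24.3 and 22.5 CPM to 10.9, 10.3 and 15.9 against 49.8, 45.0 and 42.5 CPM. It was lower at passage 5 than at passage 2 in all 3 unsorted donors and higher in all 3 sorted donors, a change of 2.27 (SE 0.16, edgeR adjusted p = 0.00071), and at passage 5 its log2FC was 1.88 (SE 0.17, edgeR adjusted p = 0.019).

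COL5A2 changed by 1.14 (SE 0.12, edgeR adjusted p = 0.0019), and its passage 5 levels were 149, 219 and 183 against 256, 314 and 339 CPM, with no overlap. COL1A1 (1.10, SE 0.22, edgeR adjusted p = 0.024) and COL1A2 (1.04, SE 0.21, edgeR adjusted p = 0.025), the chains of collagen I, changed alike, but at passage 5 they were not called between the groups. COL16A1, COL6A5 and COL6A6 were the other 3 that changed, by 1.59, 3.42 and 3.63. Of 15 tested matrix metalloproteinases and inhibitors 3 changed in the higher direction, the proteoglycan proteases ADAMTS1 by 2.48 (SE 0.36, edgeR adjusted p = 0.013), ADAMTS4 by 1.62 and ADAMTS5 by 1.18, and 1 in the lower direction, the inhibitor TIMP4 by -1.95, where 1.08% and 2.0% of all tested genes changed in these directions. ADAMTS15, a further protease of proteoglycans that was not on the list, changed in the lower direction, by -2.33 (SE 0.25, edgeR adjusted p = 0.0024). ADAMTS1 stood at 37.2, 33.8 and 58.8 against 102, 155 and 107 CPM at passage 5, the reverse of its order at passage 2.

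Of 17 tested elastic fibre genes 5 changed in the lower direction and FBN2 in the higher one, where 2.0% of all tested genes changed in the lower and 1.08% in the higher direction. The median change of the list was -0.04, and 11 members did not pass. MFAP4 changed by -3.35 (SE 0.50, edgeR adjusted p = 0.012) and stood at 6.06, 14.0 and 7.48 against 2.44, 5.51 and 2.18 CPM at passage 5. MFAP5 changed by -3.28 (SE 0.50, edgeR adjusted p = 0.017), with 502, 619 and 371 against 68.2, 144 and 98.6 CPM at passage 5 (log2FC -2.26, SE 0.32, edgeR adjusted p = 0.039). The wide spread of MFAP5 among sorted donors at passage 2 had given way to 2 groups far apart. Other FAP markers changed in the higher direction, namely COL1A1, COL1A2 and DPT (change 1.62, SE 0.23, edgeR adjusted p = 0.0084).

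ELN, elastin itself, changed by -1.31 (SE 0.15, edgeR adjusted p = 0.0025), LTBP2 by -1.73 (SE 0.15, edgeR adjusted p = 0.0010) and LTBP3 by -1.92 (SE 0.27, edgeR adjusted p = 0.0074). At passage 5 LTBP2 measured 139, 136 and 116 against 63.5, 69.2 and 68.4 CPM, below in every sorted donor, where at passage 2 it had been above in every sorted donor. FBN2, a fibrillin, changed by 1.53 (SE 0.35, edgeR adjusted p = 0.033).

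Some genes that had changed from passage 0 to passage 2 changed in the opposite direction from passage 2 to passage 5. Besides LTBP3 these were GAS7 (1.81, then -1.26), F2R (1.73, then -2.11), FGF2 (1.83, then -1.46), PPL (2.19, then -2.33), AGPAT3 (1.41, then -1.72) and MYH10 (-1.12, then 1.54), each called in both tests by edgeR. Both tests use the same passage 2 sums with opposite sign, so they are not independent.

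Of 33 tested growth factor ligands and receptors 2 were called at passage 5, FGFR1 and NRG1, and of 12 tested cyclin D and CDK inhibitor genes 2, CCND1 and CDKN2B, all 4 lower in sorted cultures, where 0.676% of all tested genes were called lower. FGFR1, a receptor for fibroblast growth factors, measured 32.7, 32.3 and 26.8 against 4.67, 9.09 and 4.04 CPM (log2FC -2.37, SE 0.31, edgeR adjusted p = 0.034). At passage 2 it had been 12.8, 14.9 and 12.7 against 20.6, 18.7 and 22.0 CPM, so it was higher at passage 5 in all 3 unsorted donors and lower in all 3 sorted donors (change -3.04, SE 0.32, edgeR adjusted p = 0.0035). CCND1, the cyclin that takes cells out of G1, measured 518, 352 and 375 against 160, 162 and 86.9 CPM (log2FC -1.6, SE 0.28, edgeR adjusted p = 0.047) and changed by -1.80 (SE 0.15, edgeR adjusted p = 0.00096). DUSP1, a phosphatase of MAP kinases and the 1 called member of 14 tested glucocorticoid response genes, measured 290, 232 and 313 against 116, 125 and 92.0 CPM (log2FC -1.33, SE 0.15, edgeR adjusted p = 0.025).

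CDKN2B, an inhibitor of the kinases that CCND1 activates, was lower too, at 1.95, 1.77 and 1.62 against 0.532, 0.576 and 0.4 CPM (log2FC -1.81, SE 0.25, edgeR adjusted p = 0.034). None of 29 tested DNA replication genes was called at passage 5, where 1.04% of all tested genes were called. Of these 29 genes 14 lay wholly below in sorted donors and none above (16.3% of all tested genes lay wholly below). The shares of FAPs outside G1 overlapped there, at 29.1, 24.8 and 21.6% against 18.8, 23.3 and 20.2%. Of the growth factor ligands NRG1, a neuregulin whose symbol stands for several genes in the table, was called through 1 of them (log2FC -1.98, SE 0.39, edgeR adjusted p = 0.049).

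Of 11 tested genes of the insulin-like growth factor axis 2 changed in the higher and 3 in the lower direction from passage 2 to passage 5 (IGFBP4 and IGFBP5, and IGFBP3, IGFBP6 and STC1), where 1.08% and 2.0% of all tested genes did. IGFBP3 stood at 13.6, 24.2 and 19.5 against 22.0, 42.2 and 276 CPM at passage 2, where donor 8 alone made most of the difference. At passage 5 it stood at 145, 201 and 130 against 16.3, 28.9 and 50.5 CPM (log2FC -2.32, SE 0.42, edgeR adjusted p = 0.049; change -4.25, SE 0.59, edgeR adjusted p = 0.013). IGFBP6 changed by -1.26 (SE 0.20, edgeR adjusted p = 0.011), IGFBP4 by 1.11 (SE 0.10, edgeR adjusted p = 0.0012) and IGFBP5 by 4.17 (SE 0.91, edgeR adjusted p = 0.041). IGFBP5 reached 21.6, 7.48 and 44.8 CPM in sorted donors at passage 5 against 1.25, 0.930 and 3.19 CPM in unsorted donors.

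Of 28 tested genes of TGF-beta, activin and BMP signalling 5 were called at passage 5, all lower in sorted cultures, where 0.676% of all tested genes were called lower. The ligand BMP4 measured 107, 98.4 and 85.5 against 50.0, 45.1 and 39.6 CPM (log2FC -1.11, SE 0.12, edgeR adjusted p = 0.020), and the BMP antagonist GREM1 10.6, 7.86 and 7.25 against 1.57, 1.85 and 1.38 CPM (log2FC -2.42, SE 0.20, edgeR adjusted p = 0.019). ID1, ID3 and ID4, transcriptional inhibitors that BMP signals switch on, had log2FCs of -1.48, -1.25 and -1.43, and none of their groups overlapped. ID1, for example, stood at 15.5, 32.3 and 22.5 against 6.95, 8.88 and 9.42 CPM.

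In the test of change the same list gave 6 genes in the lower direction (GREM1, ID1, ID3, ID4, FSTL3 and SMAD7) and 2 in the higher one, where 2.0% and 1.08% of all tested genes changed. The higher ones were TGFB2 (1.6, SE 0.12, edgeR adjusted p = 0.00071) and INHBB (2.26, SE 0.50, edgeR adjusted p = 0.030). TGFB2, a TGF-beta ligand, went from 27.9, 51.3 and 33.9 against 10.6, 23.3 and 38.8 CPM to 24.7, 45.5 and 38.1 against 34.4, 62.7 and 113 CPM. Its groups overlapped at both passages, and the change lay in the sorted donors, all 3 of which were higher at passage 5.

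PPARG, the master regulator of fat cell formation, was lower in sorted cultures at passage 5, at 2.44, 2.33 and 2.49 against 0.407, 0.781 and 0.764 CPM (log2FC -1.90, SE 0.29, edgeR adjusted p = 0.038), and was the 1 called member of 19 tested adipogenic genes, where 0.676% of all tested genes were called lower. HOXB7, a homeobox gene of body position, measured 4.53, 3.49 and 3.47 against 0.814, 0.658 and 0.364 CPM (log2FC -2.62, SE 0.31, edgeR adjusted p = 0.025). Higher in sorted cultures were CCN4, a matricellular Wnt target, at 7.95, 5.58 and 10.3 against 21.8, 18.7 and 18.3 CPM (log2FC 1.30, SE 0.22, edgeR adjusted p = 0.040), the Wnt ligand WNT16 (log2FC 1.92, SE 0.26, edgeR adjusted p = 0.034) and TNFAIP6, which modifies hyaluronan (log2FC 1.32, SE 0.24, edgeR adjusted p = 0.047).

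Interferon-stimulated genes had 17 of 27 tested members wholly above in sorted cultures at passage 5 and none below (17.0% of all tested genes lay wholly above), with a median log2FC of 0.61. OAS1X, an oligoadenylate synthetase, was the 1 called member, where 0.359% of all tested genes were called higher, at 1.05, 0.186 and 0.462 against 2.57, 5.10 and 4.08 CPM (log2FC 2.88, SE 0.53, edgeR adjusted p = 0.047). From passage 2 to passage 5 the median change of the list was 0.16 over 29 tested genes. MX2 (3.24, edgeR adjusted p = 0.015) and IFIT1 (1.2, edgeR adjusted p = 0.018) changed in the higher direction and IFIT2 (-1.52, edgeR adjusted p = 0.034) in the lower one, where 1.08% and 2.0% of all tested genes changed.

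CYP27B1, which makes the active form of vitamin D and belonged to none of the lists, went from 15.9, 12.3 and 38.3 against 6.28, 3.80 and 3.14 CPM at passage 2 to 7.88, 8.70 and 26.1 against 44.3, 39.4 and 35.0 CPM at passage 5 (change 3.84, SE 0.21, edgeR adjusted p = 0.00021). Of 15 tested retinoid genes 2 changed in the higher and 1 in the lower direction, where 1.08% and 2.0% of all tested genes did. CRABP1, a carrier of retinoic acid, changed by 3.95 (SE 0.49, edgeR adjusted p = 0.0038), RDH10, which takes part in making retinoic acid, by 1.27 (SE 0.18, edgeR adjusted p = 0.0060), and CYP26B1, which degrades retinoic acid, by -2.15 (SE 0.30, edgeR adjusted p = 0.0071). CRABP1 stood at 0.279, 1.95 and 0.416 against 4.60, 13.3 and 17.0 CPM at passage 5.

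Several of the widest gaps at passage 5 lay outside the lists and were chosen by size. SCN1A, a sodium channel subunit, measured 3.00, 6.19 and 3.10 against 17.9, 48.7 and 46.9 CPM (log2FC 3.19, SE 0.49, edgeR adjusted p = 0.040). RPRM (reprimo) measured 8.92, 7.72 and 5.27 against 0.939, 1.15 and 0.582 CPM (log2FC -3.03, SE 0.30, edgeR adjusted p = 0.020). PON3, a paraoxonase, had 0 UMIs in unsorted FAPs and 54 UMIs in sorted FAPs at passage 5, which is at least 12.9-fold higher with a floor of 3 counts over the unsorted group. MAP1LC3C had 3 and 131 UMIs, a ratio of 31.3 with a counting interval of 10.5 to 154 (95%, exact binomial). PRSS2 was again the lowest, at 46.1, 54.0 and 55.4 against 0.501, 0.699 and 0.546 CPM.

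PAX3, a transcription factor of muscle progenitors, was lower in sorted cultures at passage 5, at 10.9, 5.95 and 5.87 against 0.532, 1.52 and 0.582 CPM (log2FC -3.12, SE 0.47, edgeR adjusted p = 0.039). At passage 2 it had been too low to test, with 19 UMIs over the unsorted and 4 over the sorted donors. The 11 SC markers summed to 19.4 to 21.2 CPM in unsorted and 18.4 to 21.8 CPM in sorted donors at passage 5.

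**Figure D5:**
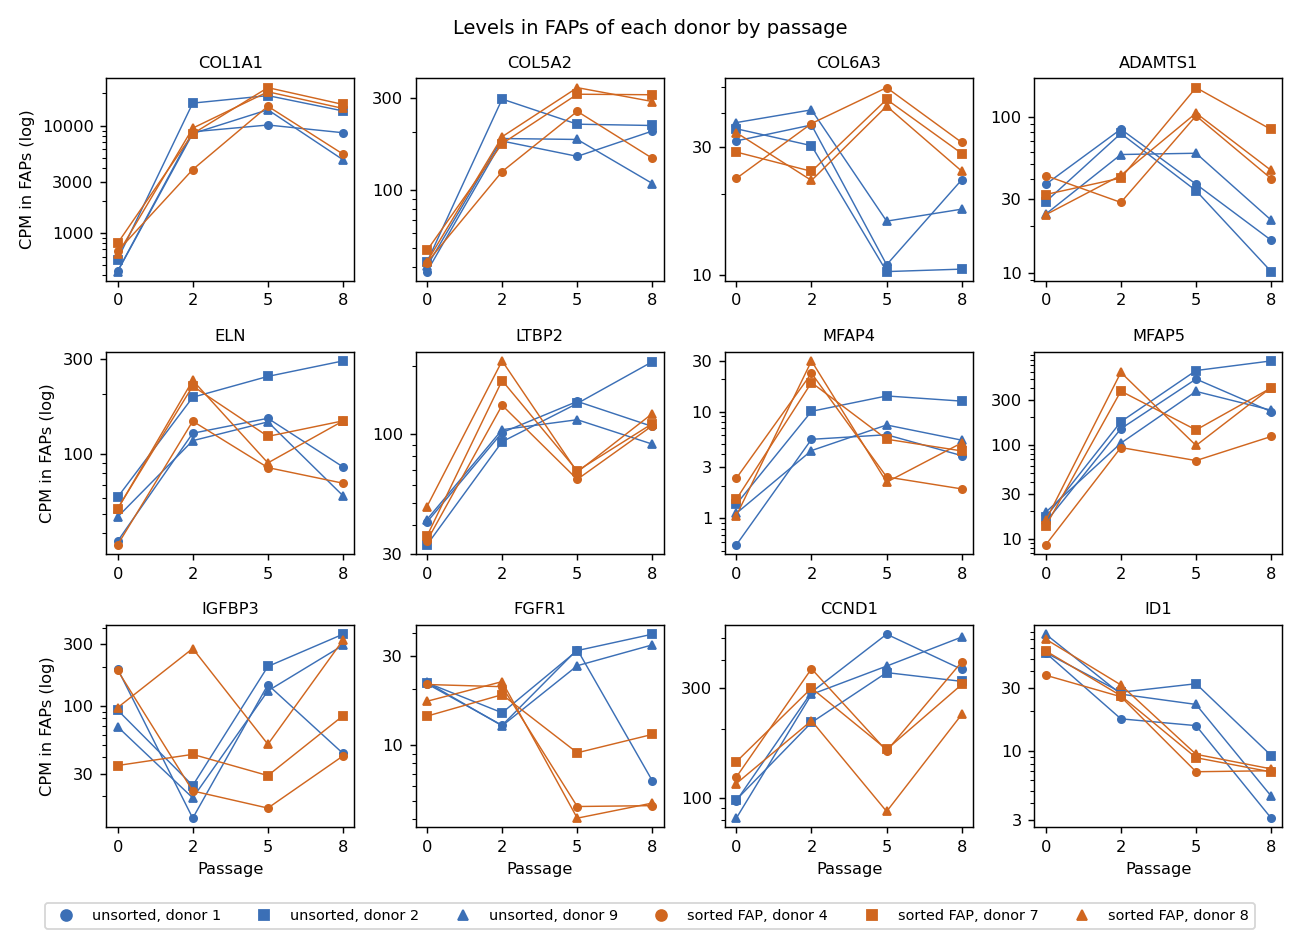
CPM of 12 genes in FAPs of each donor at passages 0, 2, 5 and 8 on log scales that differ between panels, unsorted in blue and sorted in orange. COL6A3 and ADAMTS1 separate upwards in sorted donors at passage 5 (COL6A3 42.5 to 49.8 against 10.3 to 15.9 CPM), while LTBP2, MFAP4, FGFR1 and CCND1 are lower at passage 5 than at passage 2 in all 3 sorted donors; passage and library cannot be told apart within a donor.

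At passage 8 the cultures were compared with fewer cells, 147 to 389 FAPs per donor. Of 9950 tested genes 2 were called (0.0201%), both lower in sorted cultures, 25 by DESeq2 and none after thinning to equal UMIs. PRSS2 measured 35.8, 58.0 and 58.8 against 2.36, 5.30 and 3.32 CPM (log2FC -3.80, SE 0.34, edgeR adjusted p = 0.038), and PAX3 11.4, 15.2 and 14.8 against 1.73, 1.43 and 1.55 CPM (log2FC -3.09, SE 0.24, edgeR adjusted p = 0.032). Both lost their calls in all 6 fits without 1 donor (edgeR adjusted p from 0.061 to 0.31), with the direction kept.

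At passage 8, 4.86% of tested genes lay wholly above in sorted donors and 5.14% wholly below. Of the genes of passage 5, COL6A3 still lay above in sorted donors at 22.6, 10.5 and 17.6 against 31.1, 28.3 and 24.4 CPM. ADAMTS1 did so at 16.2, 10.2 and 21.9 against 40.4, 83.6 and 45.6 CPM. FGFR1 stood at 6.41, 39.5 and 34.6 against 4.72, 11.4 and 4.87 CPM, with unsorted donor 1 among the sorted donors. CCND1, LTBP2, ELN and IGFBP3 overlapped between the groups at passage 8. None of these passed the test there.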

How the data were processed

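Per the methods, the authors aligned reads against ARS-UCD1.2 in Cell Ranger 6.0.1 and counted UMIs; the deposited matrices hold raw counts per gene and barcode. The deposited cell tables gave donor, cell type, cell cycle phase, total counts and the percent of mitochondrial UMIs of each cell that passed the authors' quality control; 14 of their columns were not used. Cell types had been assigned by the authors from the same expression values. At passage 0 the labels mention sorted cells but the methods date the sort to 72 h, so every donor was taken as not yet sorted.

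Counts were summed per donor over FAPs and compared, donors 4, 7 and 8 against 1, 2 and 9, with edgeR 4.0.16 in R 4.3.3 (robust quasi-likelihood test after TMM scaling and filterByExpr, with Benjamini-Hochberg adjustment over all tested genes). The SE was derived from log2FC and the F statistic (size of log2FC over root F). DESeq2 1.42.0 was an alternative, as were RLE factors, no filter, thinning and leaving out each donor. Cell measures used exact 2-sided permutation tests over donors (scipy 1.17.1). Intervals and floors of 3 counts cover counting error only. The fits were tested on simulated counts with 200 changed genes. Of changes of 1.5 on the log2 scale they recovered from 72.3% (passage 8) to 90.6% (passage 0), and 76.1% at passage 2. False calls numbered 11 in the simulation of passage 8, 10 in that of passage 2 and 3 in that of passage 0. Each donor gave 1 culture per passage, so p-values rest on the spread between donors, in which animal and culture cannot be told apart.

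The genes named by rule at passage 2 and passage 0 are those called, the FAP and SC marker lists, and called list members. Other genes were chosen after their values were seen. These include the matrix, lipid, interferon and signalling genes at passage 2 and those of the change from passage 2 to passage 5. The question, the donors and the 42 lists were chosen with earlier results of these data known. Only doublets between donors were removed, and no other caller was run. No coordinates or sequences are given, because the gene table used here (assembly ARS-UCD2.0) differs from the build of the files.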

Additional observations from a re-analysis of the deposited data

Results flagged for a closer look

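For 18 genes the sorted minus unsorted difference in FAPs changed between passage 0 and passage 2 by the test of the difference itself (edgeR, donor as a block, adjusted p below 0.05 and a change beyond 1 on the log2 scale). It changed towards lower levels in sorted cultures for PRSS2 (-3.18), LMO7 (-2.09), PLK2 (-1.28), ARMC4 (-1.27), TUFT1 (-1.18), MYH10 (-1.12) and GPC1 (-1.05). It changed towards higher levels for CEACAM1 (2.76), PPL (2.19), FGF2 (1.83), GAS7 (1.81), F2R (1.73), MYO5C (1.62), LTBP3 (1.59), AGPAT3 (1.41), LGALS9 (1.35), ENSBTAG00000026836 (1.30) and EDNRA (1.06). Each of these 18 calls was lost in 4 to 8 of the alternative runs. From passage 2 to passage 5 the difference changed for 380 genes by the same kind of test, added after the values were seen. Each passage is 1 library, so passage and library cannot be told apart.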

How the results depend on the processing

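No paired analysis was possible because the sorted and unsorted donors are different animals. In the tests of change, which hold the donor as a block, leaving out the replicate block gave 3 genes in place of 18 from passage 0 to 2 and 87 in place of 380 from passage 2 to 5. DESeq2 gave 26 at passage 0, 79 at passage 2, 356 at passage 5, 25 at passage 8 and 87 for the change from passage 0 to 2, against 381 for that from passage 2 to 5. With no filter on low counts there were 6 at passage 0 and 32 for the change from passage 0 to 2. Thinning to the smallest UMI total gave 4 at passage 0, 1 at passage 2 and 0 at passage 8. Age class as a covariate gave 1 at passage 2 and 7 at passage 5, and FAPs in G1 gave 193 at passage 5. Leaving out each donor in turn gave 1 to 9 genes at passage 0, 0 to 10 at passage 2, 1 to 170 at passage 5, 0 to 1 at passage 8, 0 to 74 for the change from passage 0 to 2 and 199 to 424 for that from passage 2 to 5. The cause of these shifts was not tested. For the share of FAPs with an SC gene UMI the sorted minus unsorted difference was -3.66 percentage points as measured and -0.17 with cells thinned. With 3 animals a group the exact tests cannot go below 0.10. The covariate, SC gene and G1 alternatives at passage 5, the change from passage 2 to 5 and leaving out donors for cell measures were chosen after seeing the data.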
